A study of Mus musculus with 192 samples.

Results

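The windows described here were the open chromatin regions of a mixture of mouse mammary tumour cells and spleen cells that lay outside annotated genes, at middle distance from the nearest gene start. Of 50000 windows in 1 pooled list, 7591 (15.2%) met the rule. Each was 500 bp wide and came from a peak call with a single summit, the position of highest signal on which the window is centred. Its midpoint lay outside every protein-coding and long non-coding gene body, more than 1 kb from their transcript starts, and more than 10 kb but at most 100 kb from the nearest protein-coding transcript start. The members made up 18.6% of the 40896 single-summit windows, and 53.2% of the 14270 single-summit windows outside genes and promoters.

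The windows came from Pi-ATAC, a form of ATAC-seq on single cells in which a transposase cuts and tags open DNA in fixed cells and each cell is then sorted with a record of its antibody staining. 4T1 cells, a mouse mammary tumour line, were mixed with splenocytes of an MMTV-PyMT mouse, which carries a polyoma middle T transgene under a mammary tumour virus promoter and had no tumour when its spleen was taken. The mixture was fixed, transposed in bulk, stained for EpCAM, an epithelial surface protein, and for CD45, a surface protein of leukocytes, and sorted as single cells. By title, 96 of 192 libraries were of 4T1 cells sorted on EpCAM and 96 of splenocytes sorted on CD45, and 1 of the former had a source name of splenocytes. The list pools the cells and holds positions only, with no count, height or q-value. No window could therefore be given to a cell type, the depth behind a window is unknown, and nothing below has a replicate or a test. Spread is given over the 20 chromosomes, which are not replicates, and intervals of shares (Wilson, 95%) cover counting error over windows only.

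Open chromatin far from gene starts holds much of the enhancer and insulator sequence of a cell. Enhancers are bound by combinations of sequence-specific factors that recruit the machinery acting on a promoter some distance away, and they differ more between cell types than promoters do. Insulator elements are bound by CTCF, a zinc finger protein that halts loop extrusion by cohesin. AP-1, a dimer of FOS and JUN proteins, is a frequent occupant of enhancers in epithelial and activated cells, TEAD factors act with YAP downstream of cell adhesion, and RUNX, PU.1, ETS and EBF proteins shape enhancers of blood cells.

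Factor words were read as fixed strings on both strands of the mm9 genome. The words were TGAGTCA for AP-1, GCTGAGTCA for BACH and MAF factors (which holds the AP-1 word), TGACGTCA for CRE, bound by CREB and ATF factors, and ACATTCC for TEAD. TGTGGTT was read for RUNX, CCGGAAG for ETS and GAGGAAGT for PU.1. GGGGCGGG was read for SP factors, CAGCTG for E-box proteins and TCCCNNGGG for EBF. The NFI palindrome was TTGGC followed, after 5 free bases, by GCCAA, and CTCF was read by a degenerate core of 14 letters. One member is shown for each of the 8 words with the highest ratio to neighbouring sequence, as the centre and 60 bases on either side, with the word in capitals. It is the member with that word nearest its centre among those next to the genes named below. All were intergenic.
CTCF word, 32.7 kb upstream of Plcg2, chr8:119989391-119989511, plus strand: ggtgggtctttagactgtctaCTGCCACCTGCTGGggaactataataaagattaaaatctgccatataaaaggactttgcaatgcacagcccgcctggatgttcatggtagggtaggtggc
AP-1 word, 43.5 kb upstream of S1pr1, chr3:115461435-115461555, plus strand: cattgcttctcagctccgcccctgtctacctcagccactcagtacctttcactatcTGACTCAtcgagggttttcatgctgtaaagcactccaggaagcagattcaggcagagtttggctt
BACH-MAF word, 83.2 kb upstream of Errfi1, chr4:150144719-150144839, plus strand: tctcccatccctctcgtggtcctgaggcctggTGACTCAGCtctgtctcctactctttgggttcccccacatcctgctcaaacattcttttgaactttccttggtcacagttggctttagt
ETS word, 52.8 kb upstream of Wnt7b, chr15:85465030-85465150, plus strand: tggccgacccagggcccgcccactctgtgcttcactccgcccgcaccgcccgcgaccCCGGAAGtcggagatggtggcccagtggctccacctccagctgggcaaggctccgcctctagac
SP word, 14.9 kb downstream of Errfi1, chr4:150244033-150244153, plus strand: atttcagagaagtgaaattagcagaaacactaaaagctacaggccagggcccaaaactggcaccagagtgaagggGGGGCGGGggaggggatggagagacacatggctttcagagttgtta
CRE word, 16.8 kb upstream of Cldn4, chr5:135439537-135439657, plus strand: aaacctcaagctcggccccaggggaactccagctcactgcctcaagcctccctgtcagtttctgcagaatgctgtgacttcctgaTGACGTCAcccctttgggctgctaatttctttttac
PU.1 word, 49.2 kb downstream of Ier5, chr1:156897493-156897613, plus strand: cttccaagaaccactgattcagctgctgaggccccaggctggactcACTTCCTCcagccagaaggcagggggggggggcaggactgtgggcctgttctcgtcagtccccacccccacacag
TEAD word, 39.2 kb upstream of Snx9, chr17:5802061-5802181, plus strand: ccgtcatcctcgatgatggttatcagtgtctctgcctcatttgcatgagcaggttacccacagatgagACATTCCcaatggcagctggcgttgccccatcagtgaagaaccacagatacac
In the first of these, beside Plcg2, which encodes a phospholipase of B cell receptor signalling, the CTCF word lay 32 bp from the centre. In the windows beside S1pr1, a lymphocyte egress receptor gene, and Wnt7b, a signalling ligand gene, the word covered the centre itself.

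The AP-1 word was in more middle-distance windows than any other of the 38 words searched that had 7 or more letters. Of the 7591 members, 2060 held it (27.1%, interval 26.1 to 28.1), against 8.42% of 14306 flanks, stretches of 500 bp centred 2 kb to either side that overlapped no listed window. The ratio was 3.22, and the share was higher in members than in flanks on 20 of 20 chromosomes (27.2 ± 3.23% against 8.29 ± 1.18%, SD, n = 20 chromosomes). The same letters read backwards gave 10.6% and 8.40%, a ratio of 1.26. Of all 50000 windows 19.8% held the word, and of promoter windows 8.82%. Multi-summit intergenic windows at the same distance, 10 to 100 kb, held it more often than the members, in 35.8%. Single-summit windows inside genes held it in 24.1%.

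Repeated AP-1 words had a higher ratio to flanks than single ones. A higher ratio follows for repeats wherever independent places are more frequent in members. No value under independence was computed, so repeats are not shown to exceed it. A single place was found in 1661 members (21.9%, against 8.04% of flanks), and 399 members held more than 1 place (5.26% against 0.384%, a ratio of 13.7). As many as 7 places lay in 1 member. The ratio also varied with the bases on either side of the word. CTGAGTCAC, in 311 members, had a ratio of 6.11, ATGAGTCAT, in 158 members, 5.73, and ATGAGTCAC, in 208 members, 5.30. TTGAGTCAA, in 39 members, had a ratio of 1.50, the lowest of the 16 contexts. The longer BACH-MAF word was held by 243 members (3.20% against 0.685% of flanks, ratio 4.67) and by 2.34% of all windows. Since it holds the AP-1 word, its ratio includes that of AP-1. It was in 243 of the 2060 members with the AP-1 word and in 98 of the 1205 such flanks. Read backwards, its letters were rare, in 0.145% of members and 0.0350% of flanks, a ratio of 4.15.

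Among the words held by at least 50 members, the CTCF core had the highest ratio to flanks. It was found in 214 members (2.82%, interval 2.47 to 3.22) and in 0.217% of flanks, a ratio of 13.0 with 31 flanks holding the word, and in 2.12% of all windows. Read backwards, the CTCF core was in 0.0132% of members and 0.0140% of flanks. AP-1 and CTCF words were together in 26 members, where the product of their shares comes to 58.1. Of the members with a CTCF word 12.1% also held an AP-1 word, against 27.1% of all members.

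**Figure D1:**
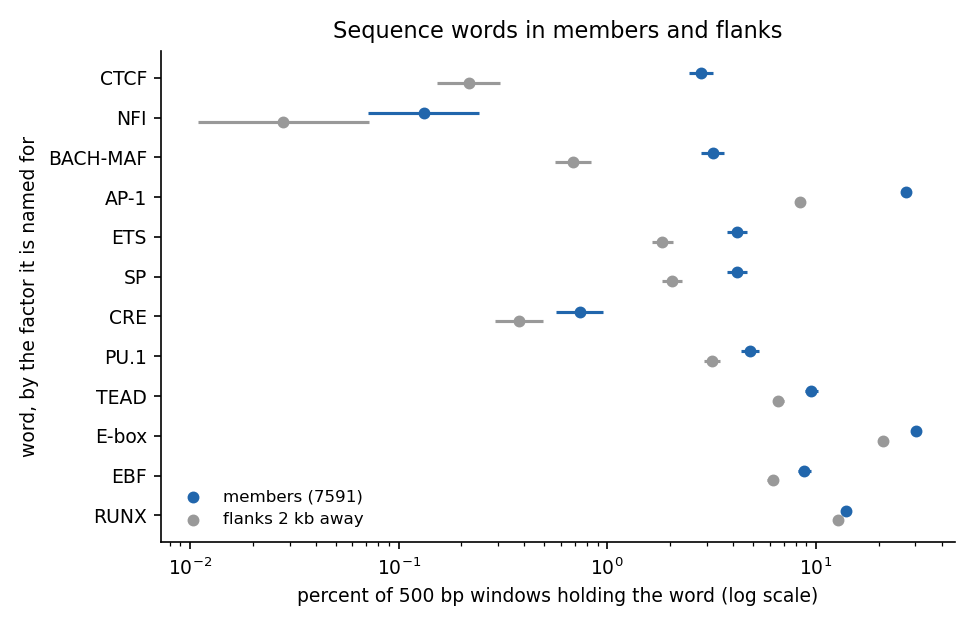
Percent of 500 bp windows that hold each of 12 words, in the 7591 members (blue) and in flanks centred 2 kb away (grey), on a log axis, with 95% Wilson intervals as bars. CTCF stands at 2.82% against 0.217%, AP-1 at 27.1% against 8.42%, and RUNX at 13.9% against 12.7%.

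Words of blood cell and general factors had smaller ratios. The ETS word was in 4.19% of members and 1.84% of flanks (ratio 2.28, in 8.56% of all windows), and the PU.1 word, read by a myeloid and B cell regulator, in 4.83% and 3.17% (ratio 1.52, in 4.63% of all windows). SP words were in 4.18% and 2.04% (ratio 2.05), and in 13.2% of all windows, since 30.2% of promoter windows held them. Each of these was higher in members than in flanks on at least 19 chromosomes. The CRE word, in 56 members, had a ratio of 1.95 (0.738% against 0.377% of flanks and 1.43% of all windows), and EBF, in 668, one of 1.42 (8.80% against 6.20% and 10.6%). Read backwards, the ratio was 1.21 for ETS, 1.10 for PU.1, 2.30 for SP, 1.15 for CRE and 1.23 for EBF. The SP letters read backwards still hold GGGCGGG, most of the word, so they are no separate comparison. The ETS and CRE letters lose their CG when read backwards. Members held a median of 6 CG and flanks 4, so those backwards ratios are not matched for composition.

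TEAD words were in 9.51% of members and 6.60% of flanks, a ratio of 1.44 that was above 1 on 19 chromosomes, and in 7.78% of all windows. The E-box word CAGCTG was in 30.0% and 21.1% (ratio 1.43, in 28.1% of all windows). RUNX words were close to the flanks, at 13.9% (interval 13.1 to 14.7) against 12.7% (12.2 to 13.2), higher on 14 chromosomes and lower on 6, and in 11.3% of all windows. The NFI palindrome was too rare to compare, in 10 members and 4 flanks, and in 0.0880% of all windows. A shorter NFI word, TTGGCA, was in 28.2% of members and 22.6% of flanks (ratio 1.25, in 24.4% of all windows). Read backwards, its letters gave a ratio of 1.26. No member held the p53 word of 20 letters, and neither did any flank or any listed window, so it could not be compared. The Wilson interval of its share in members reached 0.0506%.

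Words of several other lineage factors, chosen for mention after their values were seen, were near or below the level of the flanks. The GRHL word AACCNGGTT, of epithelial Grainyhead-like factors, was in 0.514% of members and 0.545% of flanks (0.420% of all windows). The IRF word GAAANNGAA was in 14.5% and 15.9% (13.0% of all windows), and the C/EBP word TTGCNNAA in 18.7% and 18.5% (16.9%). GATA factors act in blood and breast epithelium, and their word AGATAAG was in 5.77% and 6.77% (4.56%). The SOX word CCATTGT was in 5.59% and 7.83% (ratio 0.713, 5.09% of all windows) and lower in members on 18 chromosomes. The HNF1 word GTTAATNAT, of a liver and kidney factor, had a ratio of 0.519 (0.751% against 1.45%, and 0.778% of all windows). Read backwards, the letters gave ratios of 0.923 for GRHL, 0.908 for IRF and 1.07 for C/EBP. For GATA the backwards ratio was 0.805, for SOX 1.10 and for HNF1 0.603. For all of these but SOX, the backwards letters thus lay on the same side of the flanks as the word.

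Flanks were poorer in G and C than members, and weighting them to the members' composition moved the words unequally. Median GC was 48.8% in members and 45.0% in flanks. With flanks weighted to the members' GC in bins of 5 percentage points, AP-1 kept a ratio of 3.18, TEAD 1.47 and CTCF 11.5, whereas ETS came to 1.71, PU.1 to 1.33, SP to 1.27, E-box to 1.16 and EBF to 1.03. RUNX came to 1.20.

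**Figure D2:**
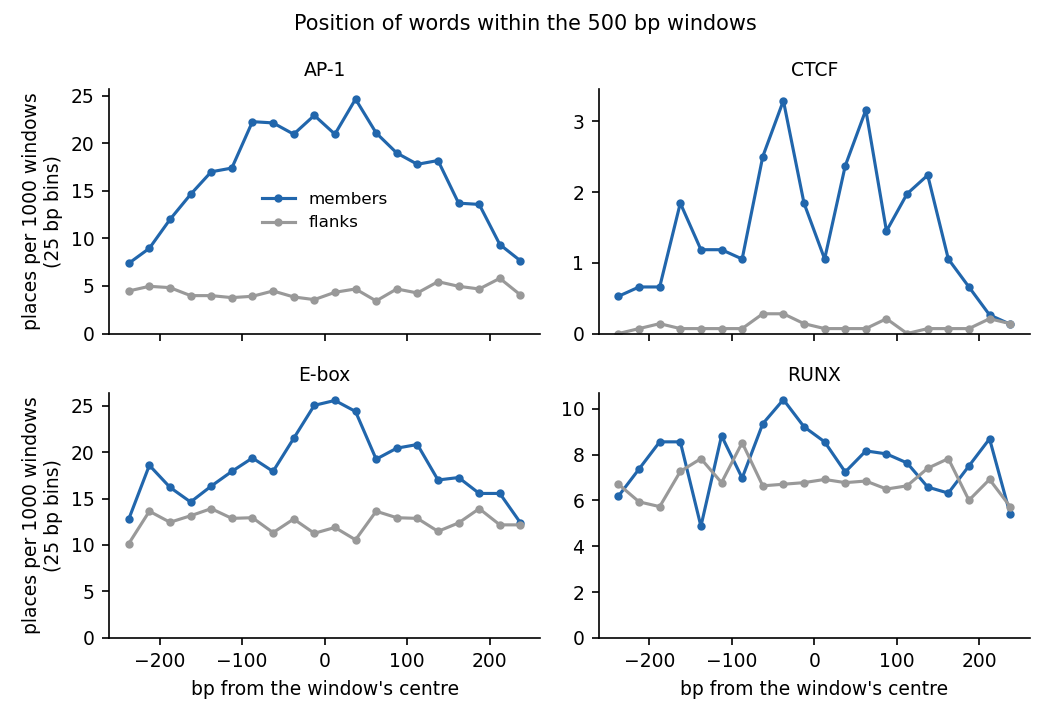
Places of 4 words per 1000 windows in 25 bp bins from the window's centre, in members (blue) and flanks (grey). AP-1 places in members gather towards the middle of the window, CTCF places are more frequent in members than in flanks, which hold 31 in all, E-box places in members are most frequent near the centre, and the RUNX lines cross each other.

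Within the windows the AP-1 word gathered towards the summit. Of 2516 AP-1 places 27.0% lay within 50 bp of the centre and 26.3% beyond 150 bp, against 18.6% and 42.8% of places in flanks. The median distance from the centre was 95.5 bp in members and 134 bp in flanks. For CTCF it was 78.0 bp over 221 places in members and 93.0 bp over 31 in flanks, with 29.9% and 25.8% of places within 50 bp and 19.9% and 35.5% beyond 150 bp. SP places were nearer the centre than in flanks (28.6% within 50 bp, against 19.2% in flanks), while for ETS 38.6% of places lay beyond 150 bp, against 38.4% in flanks.

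A search that named no factor gave the same letters at a lower rank. Of 6810 strings of 7 letters found in at least 100 members, the 10 with the highest ratio to flanks all held CG and were in 101 to 159 members each, with ratios from 4.73 to 6.36, led by CGCTCGC. The AP-1 word ranked 24, and was the only string without CG among the first 40. The strings next in rank without CG, a split chosen after the values were seen, were GAGTCAC and GACTCAC (ratios 2.34 and 2.22), which overlap the AP-1 word. At the other end stood strings of A and T such as ATATCTA, with a ratio of 0.486.

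A small group of members was rich in CpG, the dinucleotide that is dense at many promoters. By a GC content of at least 50% and a CpG ratio above 0.6, 2.77% of members (210) were CpG-rich, against 0.273% of flanks, 62.0% of promoter windows and 0.507% of single-summit intergenic windows beyond 100 kb. Among these 210, 34.3% held an SP word, 16.7% an ETS word and 7.14% an AP-1 word, where the other 7381 members gave 3.32%, 3.83% and 27.7%. Another listed window lay within 1 kb of 32.4% of them, against 17.1% of the rest. Starts of annotated genes of other kinds, such as pseudogenes and small RNAs, lay within 1 kb of 22 of them (10.5%, against 1.12% of the rest).

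Middle-distance windows thinned with distance from the gene start. Their density is given per Mb of eligible sequence, the 581 Mb of assembled mm9 sequence in which a midpoint would meet the gene and distance rule. It was 13.1 per Mb in all. From 10 to 20 kb it was 16.0 per Mb (16.3 ± 4.04 over chromosomes) and from 90 to 100 kb 8.53 (8.68 ± 3.48), with each step of 10 kb lower than the one before. The density from 10 to 20 kb was 1.50 times that from 50 to 100 kb, and the ratio was above 1 on 20 of 20 chromosomes (1.01 to 2.39). The median distance was 32.0 kb and the quartiles 18.6 and 55.1 kb.

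**Figure D3:**
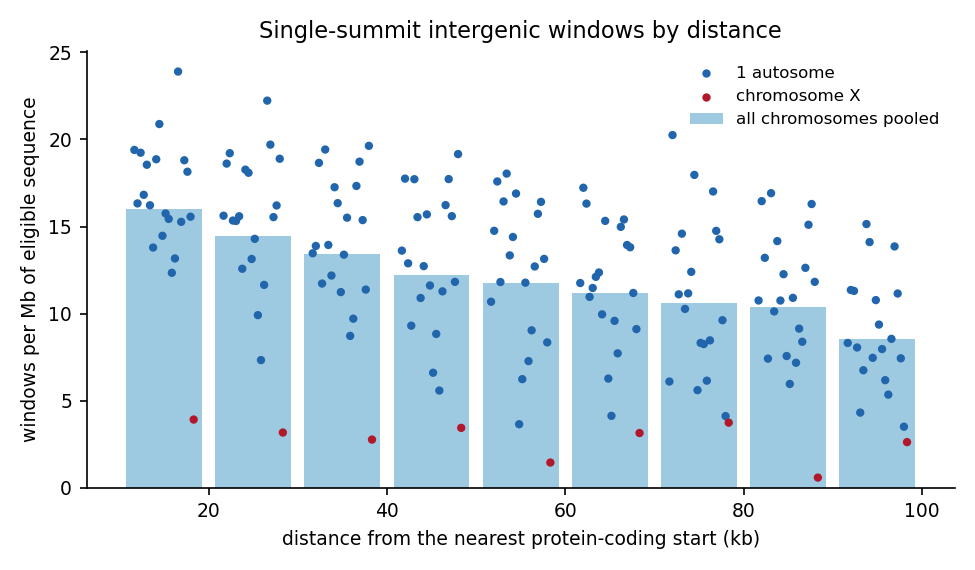
Members per Mb of eligible sequence in steps of 10 kb from the nearest protein-coding start, pooled (bars) and per chromosome (points, X in red). The pooled density runs from 16.0 per Mb at 10 to 20 kb down to 8.53 at 90 to 100 kb, and chromosome X lies below the pooled value in each step.

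Neighbouring classes lay on either side of these values. Single-summit intergenic windows up to 10 kb from a coding start had 19.4 per Mb, and those beyond 100 kb 4.72. Single-summit windows inside genes had 15.8. The share of intergenic windows from calls with several summits was 16.1% up to 10 kb, 11.6% from 10 to 100 kb and 5.03% beyond. The limits themselves were not gaps in the data. The last windows within 10 kb lay 10000 bp from Aacs and 9998 bp from Impg2 and Trim36, and the first beyond it 10001 bp from Bcl6 and 10008 bp from Crabp1. At 100 kb, Irx4 (99997 bp) and 0610007P08Rik (99996 bp) fell inside and Fut8 (100081 bp) and Ednrb (100092 bp) outside.

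Density was close on both sides of the gene. Of the members 4579 (60.3%, interval 59.2 to 61.4) lay upstream of the nearest coding start, and 60.6% of the eligible sequence did. Density was 13.0 per Mb upstream and 13.1 downstream. Between genes pointing away from each other it was 13.2, between genes pointing the same way 12.9, and between genes pointing at each other 13.4, with SDs over chromosomes of 3.75 to 3.97.

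Members were denser around genes with open chromatin at their own start. Coding genes with a listed window within 1 kb of a transcript start were nearest to 4604 members over 232 Mb, 19.9 per Mb (20.0 ± 5.24 over chromosomes). Genes without one were nearest to 2987 members over 350 Mb, 8.54 per Mb (9.12 ± 2.96). The ratio was 2.32, above 1 on 20 of 20 chromosomes (1.35 to 4.58). The AP-1 word was in 28.8% (27.6 to 30.2) of the former members and 24.5% (23.0 to 26.1) of the latter, and the CTCF word in 2.65% and 3.08%.

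Word content also varied with distance. CTCF words were in 4.50% (3.70 to 5.46) of members from 10 to 20 kb, 2.40% (1.93 to 2.99) from 20 to 50 kb and 1.82% (1.34 to 2.46) from 50 to 100 kb. AP-1 words went the other way between the first steps, at 24.7% (22.9 to 26.6), 28.2% (26.7 to 29.8) and 27.9% (26.1 to 29.8). Beyond 100 kb, single-summit intergenic windows held CTCF words in 0.761% and AP-1 words in 20.9%, and windows up to 10 kb in 3.38% and 22.9%. CTCF words were in 2.45% (2.04 to 2.93) of upstream and 3.39% (2.80 to 4.09) of downstream members.

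Density differed by chromosome, and so did the share of peak calls that reached the list. On chromosomes 1 and 10 to 13, where the numbers in the window names show that 27.1 to 31.2% of calls were kept, members had 11.2 per Mb. On the other 14 autosomes, with 38.1 to 44.3% kept, they had 15.0 (11.0 to 17.6). Chromosome X had 139 members over 47.4 Mb, 2.93 per Mb, with 39.7% of calls kept. The part of the kept share in these densities was not tested.

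Gene by gene, members were spread thinly. Of 14496 coding genes with eligible sequence, 4008 (27.6%) were nearest to a member and 2281 of these to exactly 1. At the other end, 234 genes had 5 or more, together 20.0% of all members on 3.54% of the eligible sequence. The nearest gene was also a flanking gene for 98.1% of members.

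The gene with the most was Ppara, which encodes a nuclear receptor for fatty acids. All 18 of its members lay upstream, 24.5 to 70.9 kb from its start, and it had no listed window at a start. None of the 18 held the AP-1 word and 1 held the CTCF word. Klf13, S1pr1 and Btg1 followed with 14 each. Klf13 encodes a zinc finger factor, and Btg1 an antiproliferative protein of lymphocytes. Of the 14 members of S1pr1, 4 lay 10.3 to 12.1 kb downstream of its start, and 3 of the 14 held the AP-1 word.

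Chd2, a chromatin remodeller gene, had 13 members, 12 of them upstream. Sspn, 6430527G18Rik, Ifne, Zfp36l2 and Rybp had 12 each. At Sspn, the gene of a membrane protein of the dystrophin complex, 7 of 12 held the AP-1 word, the highest share among the 12 leading genes. At Zfp36l2, which encodes an mRNA decay factor, all 12 lay downstream, 20.5 to 76.8 kb away, and 5 held it. At 6430527G18Rik none of 12 did. Rybp, which encodes a polycomb protein, had 5 with the word of 12. Ipo5, an importin gene, and Smad7, the gene of an inhibitor of TGF-beta signalling, closed the 12 with 11 each. The 4 members of Smad7 that lay 13.8, 22.8, 24.4 and 25.7 kb upstream all held the AP-1 word. Per Mb of their own sequence these genes ran from 77.8 at Btg1 to 270 at Ppara. Among the 12, only Ppara and Ifne lacked a window at a start.

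**Figure D4:**
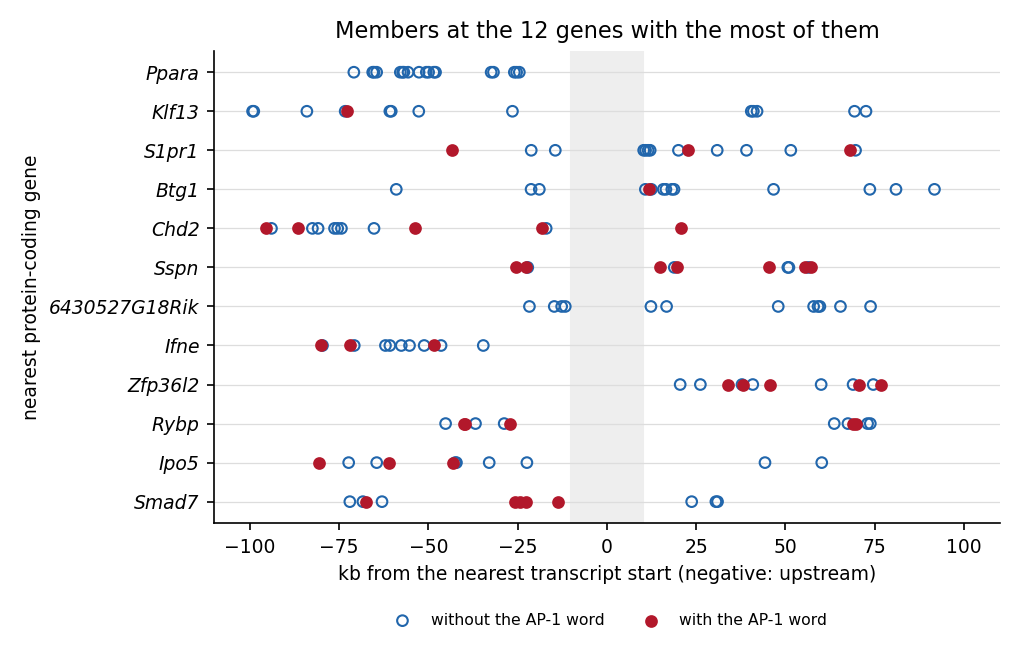
Position of each member at the 12 coding genes with the most, in kb from the nearest transcript start, with upstream to the left. Filled red circles mark members with the AP-1 word, and the grey band is the 10 kb on either side left out by the rule. Ppara has 18 members, all upstream and none with the word, and the 4 nearest upstream members of Smad7 all hold it.

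Gene lists were then compared by density in the sequence nearest to their genes. Of 23 lists, 19 lay above the 13.1 per Mb of all eligible sequence, 15 of them with an interval (exact Poisson, 95%, counting error only) wholly above it, and 2 lay wholly below. For coding genes at large the value was 19.9 per Mb with a listed window at a start and 8.54 without one.

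Matrix adhesion and TGF-beta pathway genes had the highest densities of the 23 lists. Matrix adhesion genes had 20 members, 51.0 per Mb (31.2 to 78.8), led by the hyaluronan receptor gene Cd44 with 7, all 42.5 to 80.2 kb upstream, and by the integrin gene Itga3 with 4. TGF-beta pathway genes had 57 members, 46.2 per Mb (35.0 to 59.9), and 17 of its 22 genes with eligible sequence had a member. Smad7 led them with 11, followed by Tgfbr3, a co-receptor gene, with 8, and the effector gene Smad3 with 8 upstream. The 8 of Tgfbr3 lay 44.8 to 77.8 kb downstream of a transcript start inside the gene. They lay beyond the gene's end, so its outermost start was farther away. Without its leading gene the TGF-beta list had 40.8 per Mb, and the matrix adhesion list had 41.1 without its own. Genes of the EGF receptor and ERK feedback, another signalling list that stood ninth in order, had 44 members, 31.1 per Mb (22.6 to 41.7), among them 9 at the phosphatase gene Dusp5 and 6 at Errfi1, which encodes an inhibitor of the receptor. Of the 44, 19 held the AP-1 word (43.2%, against 27.1% of all members), a difference that was not tested.

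Several lists hold genes of transcription factors. The list of AP-1 factor genes had 24 members, 42.0 per Mb (26.9 to 62.6), with 6 upstream of Atf3, 5 at Maf and 3 at Fosb. NFI, RUNX and IRF genes had 17 members, 38.6 per Mb (22.5 to 61.8), with 5 at Runx3, of which 2 held the CTCF word. TEAD and YAP genes, with 16 of 19 list entries found under the names used, had 19 members, 33.0 per Mb (19.8 to 51.5), led by the YAP target gene Cyr61 with 5. Of these 19, 10 held the AP-1 word (52.6%, against 27.1% of all members), the highest share of the 23 lists. Among other small lists it was 11.8% of the 17 NFI, RUNX and IRF members and 10.0% of the 10 natural killer cell members. No interval was computed for these shares, and their differences were not tested. NF-kB pathway genes had 34.5 per Mb and immediate early genes 30.7, the latter led by Klf6 with 7 and Ier5 with 6, all of them downstream at Ier5. Without chromosomes 1 and 10 to 13 the immediate early list had 17.4 per Mb.

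The surface proteins used for sorting belong to the epithelial and pan-leukocyte lists, whose intervals overlap widely and whose difference was not tested. Epithelial genes had 24 members, 30.7 per Mb (19.7 to 45.7). Epcam, whose product was used to sort the 4T1 cells, led them with 6, at 15.8, 22.4, 23.3, 26.2, 64.5 and 64.9 kb upstream of its start. The tight junction gene Cldn4 had 4 and the epithelial factor gene Ehf 3. Pan-leukocyte genes had 15 members, 43.1 per Mb (24.1 to 71.1), led by Plcg2 with 6, of which 2 held the CTCF word. Without Plcg2 the list had 28.0 per Mb, and the epithelial list had 26.0 without Epcam. Ptprc, which encodes CD45, had 1 member, 16.7 kb upstream, over 39.2 kb of eligible sequence, against 87.6 kb at Epcam. It had no listed window at a start. Ptprc lies on chromosome 1, where 30.6% of calls were kept, and Epcam on chromosome 17, with 42.6% kept. The difference between the 2 genes was not tested.

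Among lineage lists, B cell genes had 30.0 per Mb (17.1 to 48.6), led by Bach2, the gene of a B cell repressor, with 7. The B cell value was 20.4 per Mb without Bach2. It was 16.7 from 21 members when either flanking gene was counted, and 45.5 without chromosomes 1 and 10 to 13. T cell genes had 25.9 (16.6 to 38.5), with 4 each at the factor gene Ets1 and the checkpoint gene Ctla4. Natural killer cell genes had 37.8 from 10 members, 4 of them at the factor gene Eomes. Myeloid genes had 24.7 (13.8 to 40.7), with 3 each at the Fc receptor genes Fcgr1 and Fcgr3. In myeloid members 13.3% held the AP-1 word and in B cell members 50.0%, from 15 and 16 members. The intervals of these 4 lists overlapped each other and that of the epithelial list.

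Genes of other tissues lay lowest, with the hypoxia, endothelial and EMT lists between. Neuronal genes had 4 members, 3.66 per Mb (0.996 to 9.36), and olfactory receptor genes 50 over 10.8 Mb, 4.61 per Mb (3.42 to 6.08). Of those 50, 8 lay beside Olfr1423 in 1 group described below. Hepatocyte genes had 9.11 per Mb (3.34 to 19.8) from 6 members and erythroid genes 5.10 (0.129 to 28.4) from 1, both with an interval that spans 13.1. No hepatocyte or erythroid gene with eligible sequence had a window at a start, and coding genes at large without one had 8.54 per Mb. Hypoxia genes had 24.3 per Mb, with 3 members each at Vegfa and Bnip3l, endothelial genes 18.1, EMT genes 16.6, zinc finger genes 14.4 and ribosomal protein genes 14.0, which was 24.1 without chromosomes 1 and 10 to 13. Neuronal genes had 6.55 without those chromosomes.

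**Figure D5:**
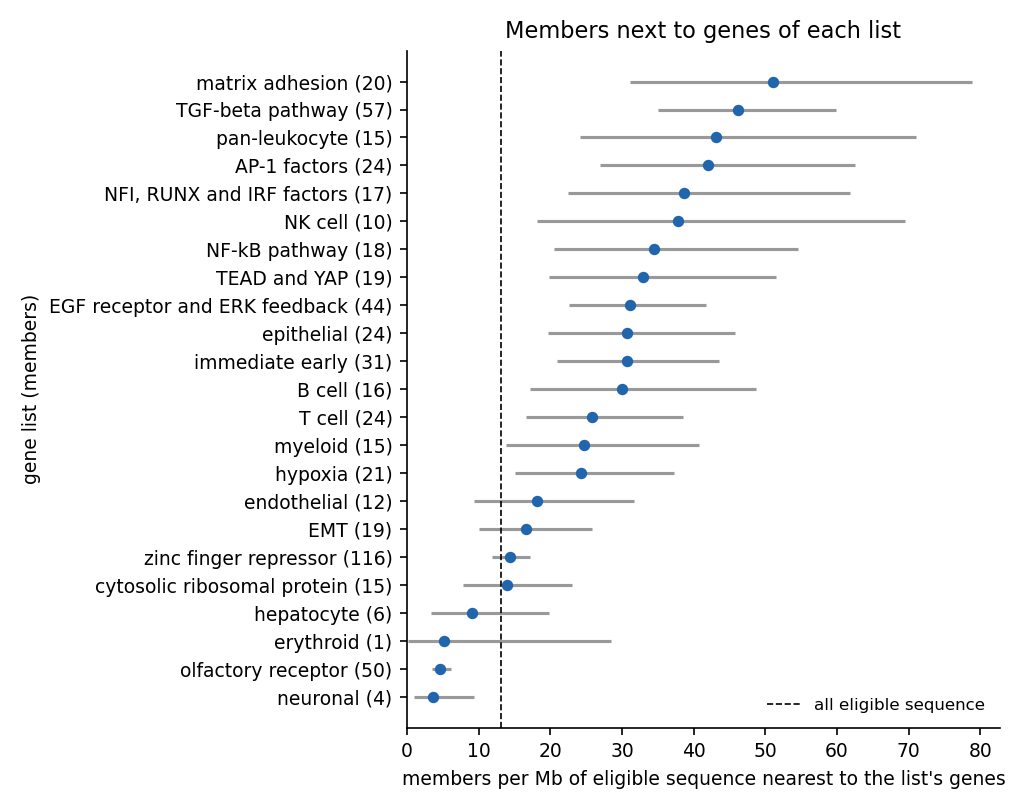
Members per Mb of eligible sequence nearest to the genes of each of 23 lists, with exact 95% Poisson intervals, the number of members in parentheses, and the value of all eligible sequence as a dashed line (13.1). Matrix adhesion, at 51.0, and TGF-beta, at 46.2, stand highest, and neuronal (3.66) and olfactory receptor genes (4.61) lowest.

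Many members lay in groups. The nearest other listed window was a median of 8.87 kb away, 52.6% of members had one within 10 kb, and 856 (11.3%) had none within 50 kb. With members joined when the gap between their edges was within a stitching distance between 12 and 13 kb, 1959 (25.8%, interval 24.8 to 26.8) fell into 505 groups of at least 3, with a median length of 10.8 kb. Per chromosome the share was 25.2 ± 5.54%, and 10.1% on X. A total of 3722 members (49.0%) stood alone. The AP-1 word was in 30.8% (28.8 to 32.9) of grouped and 25.9% (24.7 to 27.0) of other members, and the CTCF word in 2.14% and 3.05%. Members with no other window within 50 kb held the AP-1 word in 21.6% (19.0 to 24.5).

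The largest group had 15 members over 33.2 kb between Wnt7b and Ppara, chr15:85484415-85517658, with no other listed window inside and no AP-1 or CTCF word in any member. The next had 12 members over 45.9 kb between Ifne and Mtap, chr4:88560490-88606341, and 3 of them held the AP-1 word. Between Gm6772 and 6430527G18Rik, chr12:88131426-88178048, 11 members shared 46.6 kb with 7 other windows. Between Chd2 and A830073O21Rik, chr7:80740008-80782419, lay 10. The last of the 6 largest held 9 each, between Zdhhc14 and Snx9, chr17:5794311-5828640, where 6 held the AP-1 word, and between Osbp and Olfr1423, chr19:12078996-12088100, packed into 9.11 kb. In all, 3 groups had 9 members, and the group that came last in order of chromosome name was left out. The closest members of a group overlapped, with midpoints as near as 0.296 kb, so they are not separate stretches of sequence. The central bases of the middle member of the 3 largest groups are shown, with any of the 38 words searched in capitals.
Wnt7b to Ppara group, 57.2 kb upstream of Ppara, chr15:85508124-85508244, plus strand: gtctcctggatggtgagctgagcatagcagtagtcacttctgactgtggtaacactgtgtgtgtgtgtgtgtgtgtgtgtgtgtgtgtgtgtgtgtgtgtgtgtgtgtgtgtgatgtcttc
Ifne to Mtap group, 60.8 kb upstream of Ifne, chr4:88586845-88586965, plus strand: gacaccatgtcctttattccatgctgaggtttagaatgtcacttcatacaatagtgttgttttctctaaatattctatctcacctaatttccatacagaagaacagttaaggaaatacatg
Gm6772 to 6430527G18Rik group, 73.8 kb downstream of 6430527G18Rik, chr12:88151882-88152002, plus strand: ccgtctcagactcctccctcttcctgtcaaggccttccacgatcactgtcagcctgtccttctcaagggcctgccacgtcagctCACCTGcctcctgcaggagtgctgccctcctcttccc
The first carried a long run of alternating t and g, the second was poor in G and C (33.9%), and in the third the capitals mark CACCTG, the complement of a word read by ZEB and SNAI repressors.

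Small RNA genes lay in or near some of these stretches, an observation chosen after the values were seen. Of 1576 annotated miRNA genes 101 had a member within 10 kb, and 1.59% of members lay that close to a miRNA gene. The matching shares of eligible sequence and of all listed windows were not computed, so these counts are not shown to be high or low. The highest count was 5, at Mirlet7b and Mirlet7c-2, which share their neighbours between Wnt7b and Ppara, and at Mirlet7i on chromosome 10. Mirlet7a-1 on chromosome 13 and Mir34a on chromosome 4 had 4 each, and Mir31 had 1 in the group between Ifne and Mtap, 4.17 kb from its start. The let-7 miRNAs repress growth genes, and Mir34a is a p53 target.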

How the data were processed

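Per the labels and the study's methods, the authors used Bowtie2 2.1.0 for alignment (mm9) and dropped reads that were mitochondrial, of low quality or duplicated (Picard 1.79). They called summits with MACS2 on aggregated cells and deposited the 50000 windows of 500 bp with the lowest q-values. The deposited list gives positions and call names, with no count, score or signal, so the depth behind each window is unknown. A name ending in a digit was read as a call with 1 summit.

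Genes came from GENCODE vM1 on mm9. Distances were taken from window midpoints to the nearest protein-coding transcript start, which can lie inside a gene body. Densities use assembled sequence that meets the same rule. Words were searched on both strands in members and in flanks 2 kb away that overlapped no listed window. Members were grouped when their edges lay at most 12.5 kb apart. Named genes were the 12 with the most members, up to 3 genes with the most members of each list, those beside the 6 largest groups and, as sort markers, Epcam and Ptprc. The scripts were tested on simulated data and used Python 3.11.15, numpy 2.4.6, pandas 2.3.3, scipy 1.17.1 and matplotlib 3.10.9. The members and lists were chosen with earlier results of these data known. With 1 pooled list, no test between groups was made. Alternatives covered the start used, chromosomes left out, window width, GC weighting and grouping distance.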

Additional observations from a re-analysis of the deposited data

How the results depend on the processing

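The upstream share of members, 60.3% against 60.6% of eligible sequence, was 61.1% against 60.6% without chromosomes 1 and 10 to 13, so its small difference from sequence changed sign. Of the main results, 49 values stayed within set limits and 9 moved beyond them. Those of the NFI palindrome all counted as staying, though its ratio ran from 2.99 to 16.9 against 4.71. With 10 members and 4 flanks its limits were too wide to show whether it is stable. The limits were counting intervals, except for the number of members and of lists, where a wider fold limit was used. Under that limit the number of members ran from 5339 (at most 50 kb) to 9241 (at most 200 kb), against 7591. Without chromosomes 1 and 10 to 13, the density ratio of 10 to 20 kb against 50 to 100 kb was 1.39, and that of genes with against genes without a window at a start was 2.47, which was 2.20 without chromosome X. These last alternatives were chosen after seeing the data. With the outermost start of each gene, the upstream share was 64.8% of members and 64.9% of eligible sequence. In the central 200 bp the AP-1 ratio was 4.78 and the TEAD ratio 1.66. The share of members in groups was 14.6% when joined at 5 kb, 37.8% at 25 kb and 38.1% when all listed windows were joined. Of single lists, immediate early genes had 17.4 per Mb and ribosomal protein genes 24.1 without chromosomes 1 and 10 to 13, and B cell genes 16.7 when either flanking gene was counted. The causes were not tested.

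An alternative that leaves out repeats was not run, because the reference used here has no masked bases. No paired analysis was possible because the list is 1 pooled sample. The list was cut at a fixed number of windows, so a stretch without a window is not shown to be closed.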

Other observations

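A few members touched annotated genes of kinds that the rule did not use. The midpoint lay inside such a gene for 47 members, 37 of them pseudogenes. For 105 members a start of such a gene lay within 1 kb, with 38 at pseudogenes, 19 at snRNA, 17 at miRNA and 16 at snoRNA genes. Immunoglobulin or T cell receptor segments had 7.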
